A study of Mus musculus with 8 samples.

Results

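The cytosolic ribosome of the mouse cell is built from one small (40S) and one large (60S) subunit, and the genes described here encode its proteins. Members were all genes whose name in the array files is Rpl or Rps followed by a number (with an optional a, x or y), together with Rplp0, Rplp1, Rplp2 and Rpsa. They came to 76 genes, 46 of the 60S and 30 of the 40S subunit, of 20853 genes tested in all. The naming rule uses no measured value, but the members were chosen with earlier results of these data known. Each gene was represented by the brightest of its probes, and all 76 members were well above background on all 8 arrays. The 76 genes had 175 probes, and 55 genes had more than 1. Rps23 is not analysed here.

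The cells were mouse embryonic fibroblasts without the Csk gene (Csk-/-), whose product is the kinase that holds Src-family kinases inactive. They carried a vector, pBKT2-c-Src, from which doxycycline turns on the tyrosine kinase c-Src, so every group shares the deletion and the vector. The groups were 0 h, 6 h, 24 h and 72 h of c-Src induction with 1 µg/ml doxycycline, with 2 arrays each. The study asked how the transcriptome follows c-Src expression over time. Whether the cells are 1 clone, and whether the 2 arrays of a time came from separate cultures, is not given in the sources used here, so the p-values rest on variation between arrays that may be only technical. Without an array of cells given doxycycline but no vector, c-Src, the drug, time in culture and position on the single slide cannot be told apart. The Src probe rose from signals of 149.9 and 167.6 at 0 h to 4082 and 4207 at 6 h, 3856 and 3738 at 24 h, and 3141 and 3035 at 72 h, higher on each of the 6 induced arrays as their labels say. The Csk probe did not pass the filter on dim probes.

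Ribosomal protein genes are among the most strongly transcribed genes of a growing cell, and their products are made in nearly equal numbers because each ribosome holds a single copy of most of them. Their mRNAs begin with a 5′ terminal oligopyrimidine (TOP) tract, an unbroken run of C and T bases that starts with C. Through this tract the mTOR kinase and the protein LARP1 control how many ribosomes translate them, and a change of that kind need not alter the amount of mRNA. Translation elongation factors and the host genes of small nucleolar RNAs (snoRNAs) carry TOP tracts too, whereas the factors that assemble ribosomes in the nucleolus mostly do not and are well known targets of Myc. Arrays of total RNA measure the amount of each mRNA and not its translation.

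The starts of 7 members, of Snhg12 (a snoRNA host gene) and of Nop56 (an assembly factor) are shown because the tract is what defines the TOP class, and the values below are given for all 3 kinds of gene. RefSeq promoter sequences (build GRCm38.p6) were matched for 56 of the 76 members. Each line gives 45 bases before and 25 from the annotated start, on the gene's own strand and 5′ to 3′, and capitals mark any of 4 short words of a TOP tract (CTTTC or its variant CTTTT, with CTTCC and also CTCTT), which can overlap, where they lie from 20 bases before the start onward.

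Rpl12: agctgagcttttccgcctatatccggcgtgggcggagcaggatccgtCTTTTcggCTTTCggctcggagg
Rpl28: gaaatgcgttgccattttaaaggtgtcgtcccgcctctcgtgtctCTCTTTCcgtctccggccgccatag
Rpl15: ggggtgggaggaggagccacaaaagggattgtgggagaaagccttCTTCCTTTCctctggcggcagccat
Rps6: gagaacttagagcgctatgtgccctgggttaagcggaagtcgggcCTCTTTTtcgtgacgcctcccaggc
Rps10: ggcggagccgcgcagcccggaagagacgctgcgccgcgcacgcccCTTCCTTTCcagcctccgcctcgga
Rplp2: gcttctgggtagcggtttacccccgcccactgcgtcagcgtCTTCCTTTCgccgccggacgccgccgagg
Rplp0: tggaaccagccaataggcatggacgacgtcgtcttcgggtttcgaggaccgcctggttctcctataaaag
Snhg12: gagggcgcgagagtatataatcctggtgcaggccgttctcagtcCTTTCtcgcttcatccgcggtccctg
Nop56: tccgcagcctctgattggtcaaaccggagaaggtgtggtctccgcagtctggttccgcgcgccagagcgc

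In the genome, Rpl12 lies at chr2:32961667-32961736 (plus strand), Rpl28 at chr7:4792920-4792989 (plus strand), Rpl15 at chr14:18270962-18271031 (minus strand), Rps6 at chr4:86857343-86857412 (minus strand), Rps10 at chr17:27635220-27635289 (minus strand), Rplp2 at chr7:141447606-141447675 (plus strand), Rplp0 at chr5:115559422-115559491 (plus strand), Snhg12 at chr4:132308633-132308702 (plus strand) and Nop56 at chr2:130274367-130274436 (plus strand). At least 1 of the 4 words, searched from 20 bases before to 40 after a start on the gene's strand, stood in 43 of 56 members (76.8%), 10 of 12 other TOP mRNAs (83.3%) and 5 of 8 snoRNA host genes (62.5%). The same held for 3 of 20 ribosome assembly genes (15.0%) and 31.1% of 27025 genes. Read on the opposite strand, the words stood in 32.1% of members and 33.3% of all genes. Rplp0 and Nop56 hold none of the words in the bases shown, and annotated starts can lie some bases away from the true ones, so a missing word says only that these letters are not there. Among members, the words stood in 10 of the 14 matched genes that were higher at 72 h and 33 of the 42 others. Of motifs searched on both strands over all 300 bases, CCGGAAG (the core of ETS-family sites) stood in 24 of 56 members (42.9%) and 9.93% of all genes, and CACGTG (the E-box bound by Myc) in 6 of 56 members and 8.09% of all genes.

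Over 72 h the ribosomal protein mRNAs stayed close to their starting level. No member moved by as much as 0.5 on the log2 scale at any time, and the widest differences from 0 h were a rise of 0.43 (Rps19) and a fall of 0.22 (Rpl21), both at 72 h. The SD of the difference among members was 0.051 at 6 h, 0.081 at 24 h and 0.122 at 72 h, against 0.364, 0.539 and 0.652 among all genes tested. Most genes tested were dimmer than most members, and the SD among other genes as bright was not computed. The small spread is therefore not shown to be particular to ribosomal protein genes. The median member stood 0.04 above 0 h at 6 h, 0.02 below it at 24 h and 0.11 above it at 72 h. Values here and below are log2 signals scaled to each array's 75th percentile, and a gene was called when its limma p-value, adjusted by Benjamini-Hochberg over all 20853 genes, was under 0.05.

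Levels on the single arrays show how narrow these shifts are. The median of the members' deviations from their own 8-array mean was -0.05 and -0.02 on the 0 h arrays, 0.00 and 0.01 at 6 h, -0.12 and 0.02 at 24 h, and 0.05 and 0.09 at 72 h. The 72 h arrays were the highest pair and the first 24 h array was the lowest of all, while the 24 h pair spanned a wider range than any other time. The replicate number of an array is its row on the slide, and the second array lay above the first at every time. The members' median SD between the arrays of a time was 0.099 at 24 h and 0.022 to 0.037 at the other times. The 559 other genes as bright as nearly all members (signal of at least 56631, the members' 5th percentile) followed the same course, at -0.06 and -0.02, 0.01 and 0.01, -0.09 and 0.03, and 0.05 and 0.09. Whether the members' common shift belongs to ribosomal protein genes or to bright probes was not tested. The 40S and 60S members moved alike, with medians of 0.12 and 0.11 at 72 h.

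**Figure D1:**
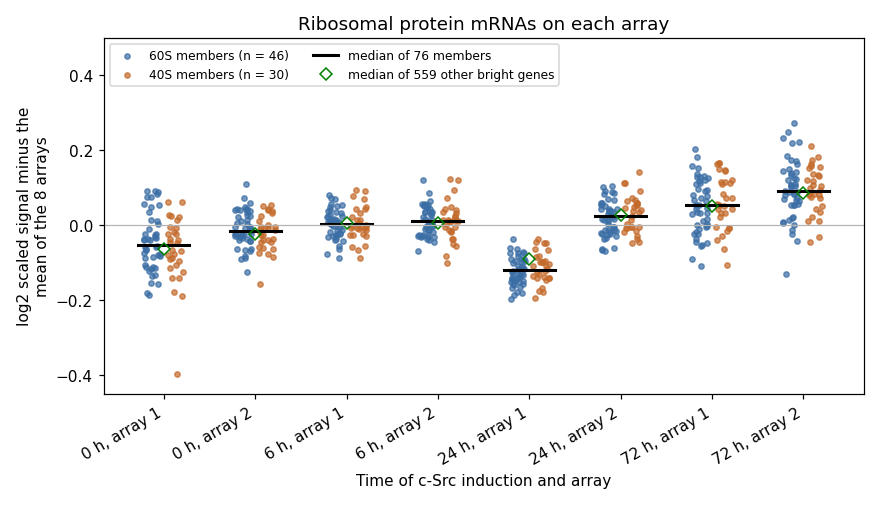
Log2 scaled signal of each of the 76 members minus its mean over the 8 arrays (vertical axis), for each array (horizontal axis). Blue points are 60S and orange points 40S members, black bars the median of all members and green diamonds the median of 559 other bright genes. The first 24 h array has the lowest median (-0.12) and the 72 h arrays the highest (0.05 and 0.09), and the diamonds follow the bars.

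At 6 h, 0 of the 76 members were called in limma, where 17.6% of all genes were (10.3% higher and 7.22% lower). At an unadjusted limma p under 0.05 the count was 1, Rps3a (higher). The share of all genes at unadjusted p was not counted, here or below, so such counts have no baseline. Both 6 h arrays lay above both 0 h arrays for 35 members (46.1%, against 32.7% of all genes) and below them for 5 (6.58%, against 30%). The differences ran from -0.07 (Rpl14) to 0.24 (Rps19). The direction of the median turned under quantile normalization (-0.01), cyclic loess (-0.07) and scaling on other bright genes (-0.01).

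At 24 h, 3 members were lower and 0 higher in limma, against 20.1% and 21.3% of all genes. At an unadjusted p under 0.05 the counts were 4 lower and 2 higher, with no share of all genes counted at that threshold. Both 24 h arrays lay below both 0 h arrays for 17 members (22.4%, against 36.1% of all genes) and above them for 4 (5.26%, against 33.8%). The 3 were Rplp0, the base of the ribosomal stalk that recruits elongation factors, Rpl41, the smallest protein of the ribosome, and Rpl21, a protein of the 60S subunit. Rplp0 had log2 scaled levels of 9.44 and 9.40 at 0 h, 9.41 and 9.38 at 6 h, 9.22 and 9.29 at 24 h, and 9.34 and 9.38 at 72 h. Its 24 h arrays were the lowest pair and did not overlap those of any other time, with a difference from 0 h of -0.16 (SE 0.047, adjusted p = 0.0371). The other probes of Rplp0 were not called at 24 h, at -0.13 and 0.02 (adjusted p = 0.107 and 0.938). The mean of its probes was -0.09 (adjusted p = 0.372). Rpl41 ran from 9.20 and 9.17 at 0 h through 9.18 and 9.11 at 6 h to 8.96 and 9.05 at 24 h, then 9.10 and 9.11 at 72 h. Its 24 h arrays too lay below all others (-0.17, SE 0.052, adjusted p = 0.0424). With the replicate number, which is the slide row, as a block, Rpl41 was no longer called (adjusted p = 0.0552). The slide rows went opposite ways at 24 h, with 59 of 76 members below 0 h in the first row (median -0.06) and 53 of 76 above it in the second (median 0.03). These calls rest on single arrays. Rplp0 and Rpl41 each lost theirs under 14 of 21 other settings and Rpl21 under 8. Without the first 24 h array 0 members were lower and 2 higher, without either 0 h array 0 were lower, and without either 6 h or either 72 h array 1 was lower. The counts of lower and higher members were 23 and 0 with cyclic loess, and 0 and 10 with scaling to the array median, which takes the median of all genes from -0.02 to 0.13 at 24 h and from 0.00 to 0.18 at 72 h.

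At 72 h, 17 members were higher (22.4%) and 1 lower (1.32%) in limma, against 27.4% and 24.6% of all genes, 52.1% in all. Of the 559 other bright genes, 27% were higher and 5.72% lower, with a median of 0.11 that is the same as the members' to 2 decimals. Of the 60S, 10 members rose, among them Rpl10a, Rpl12, Rpl15, Rpl22, Rpl26 and Rpl28, and of the 40S, 7, among them Rps2, Rps3, Rps3a, Rps19 and Rps26. Both 72 h arrays lay above both 0 h arrays for 50 members (65.8%, against 40.2% of all genes) and below them for 9 (11.8%, against 38%). Within the first slide row 59 members were above 0 h and within the second 63, with a median of 0.12 in both. The split of calls depends on the scaling, with 57 higher and 0 lower when arrays were scaled to their median, 9 and 4 with quantile normalization, 4 and 13 with cyclic loess, and 6 and 9 when they were scaled on the other bright genes. It depends on single arrays as well: 2 were higher without the first 0 h array, 7 without the second, 7 without either 6 h array, 25 without either 24 h array, 3 without the first 72 h array and 2 without the second.

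**Figure D2:**
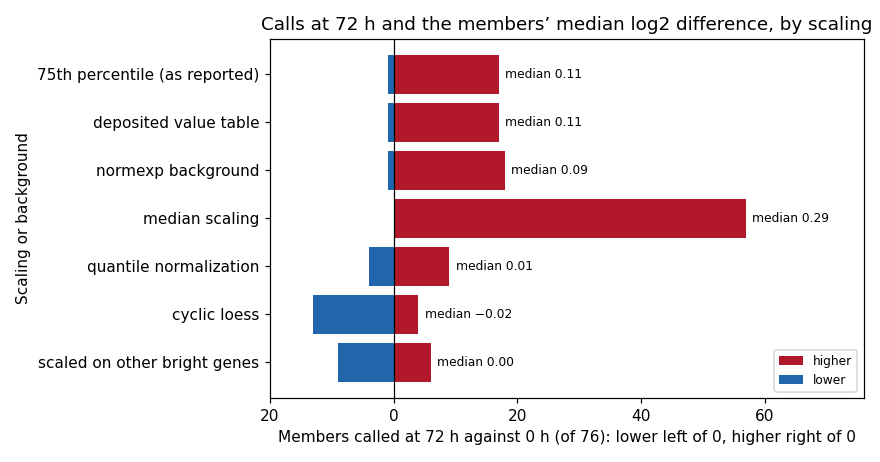
Number of the 76 members called at 72 h against 0 h (horizontal axis, lower to the left of 0 and higher to the right) under 7 scalings or background corrections (vertical axis), with the members' median log2 difference beside each bar. The 75th percentile gives 17 higher and 1 lower, median scaling 57 and 0, and cyclic loess 4 and 13.

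The largest rise was that of Rps19, a protein of the 40S head whose loss of 1 copy causes Diamond-Blackfan anaemia in people. Its log2 scaled levels were 4.86 and 5.18 at 0 h, 5.25 and 5.26 at 6 h, 5.22 and 5.40 at 24 h, and 5.42 and 5.47 at 72 h. The first 0 h array was the lowest and the other 7 lay above it, and the 72 h pair exceeded all other arrays. The difference at 72 h was 0.43 (SE 0.114, 1.34-fold, adjusted p = 0.0236), and it was 0.27 (adjusted p = 0.0646) without the first 0 h array. Its 60-base probe lies at chr7:25670166-25670225 (build mm9, plus strand).

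Rpl12, which binds the base of the stalk beside Rplp0, had levels of 8.68 and 8.74 at 0 h, 8.81 and 8.83 at 6 h, 8.71 and 8.95 at 24 h, and 9.07 and 9.14 at 72 h. The 72 h arrays were the highest, and the 24 h pair overlapped the rest. The difference at 72 h was 0.39 (SE 0.083, 1.31-fold, adjusted p = 0.0107). A second probe of Rpl12, on the 5′ side, gave 0.49 (adjusted p = 0.0046 over all probes tested). The other 3 stalk proteins were not called at 72 h, with 0.16 for Rplp1, -0.06 for Rplp2 and -0.06 for Rplp0.

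Rps3a, a 40S protein at the mRNA exit, had levels of 8.19 and 8.16 at 0 h, 8.29 and 8.33 at 6 h, 8.27 and 8.38 at 24 h, and 8.46 and 8.45 at 72 h. Both 0 h arrays were below all 6 later ones and both 72 h arrays above all others. The difference at 72 h was 0.28 (SE 0.052, adjusted p = 0.00617), and all 3 of its probes gave nearly the same value (0.28, 0.31 and 0.33). It lost its call under 1 of 21 other settings, normexp background correction (0.17, adjusted p = 0.0669), which is fewer than the 2 settings for Rpl12, 4 for Rpl22, 5 for Rps19, 8 for Rpl27a, 10 for Rpl30 and 13 for Rps3. Rps2, at the mRNA entry of the 40S subunit, ran from 8.48 and 8.52 at 0 h to 8.76 and 8.75 at 72 h, a difference of 0.26 (SE 0.052, adjusted p = 0.00896). Its 6 h arrays (8.54 and 8.54) and 24 h arrays (8.53 and 8.64) lay between.

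Rpl22, a 60S protein whose loss is known to stall the development of T cells, rose from 8.43 and 8.50 at 0 h to 8.77 and 8.82 at 72 h. Its 6 h arrays (8.51 and 8.59) lay between, and its 24 h arrays (8.44 and 8.64) overlapped those of 0 h. The difference at 72 h was 0.33 (SE 0.079, adjusted p = 0.0158), and the 72 h arrays exceeded all others. A second, much dimmer probe on the 3′ side gave 0.42 (adjusted p = 0.00106). Rpl27a and Rpl30, both 60S proteins, had the same difference of 0.30 at 72 h (SE 0.084 and 0.091, adjusted p = 0.0287 and 0.0378). Rpl27a went from 7.96 and 8.11 at 0 h to 8.30 and 8.36 at 72 h, and Rpl30 from 7.90 and 7.95 to 8.16 and 8.28, without overlap in either. Both had a value of 0.16 with cyclic loess and were not called there (adjusted p = 0.0624 and 0.0814). The other probes of Rpl27a did not give the same answer. One on the 5′ side gave 0.26 (adjusted p = 0.019) and a dimmer one on the 3′ side -0.02 (adjusted p = 0.876). As the mean of its probes Rpl27a stood at 0.18 and was not called (adjusted p = 0.0891).

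Rpl21 was the only member called lower at both 24 h and 72 h. Its levels were 1.05 and 1.07 at 0 h, 1.04 and 1.08 at 6 h, 0.87 and 0.89 at 24 h, and 0.85 and 0.83 at 72 h. The 4 later arrays lay below the 4 earlier ones without overlap, with differences of -0.18 at 24 h (SE 0.041, adjusted p = 0.018) and -0.22 at 72 h (SE 0.041, adjusted p = 0.00639). Its probe was by far the dimmest of the chosen ones, with a mean signal of 740 against 14619 for the next (Rps19), and its only other probe was dimmer still (466) and gave -0.07 at 72 h (adjusted p = 0.347). The value at 72 h was -0.04 (adjusted p = 0.671) with median scaling, and it kept its call under the other 20 settings.

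**Figure D3:**
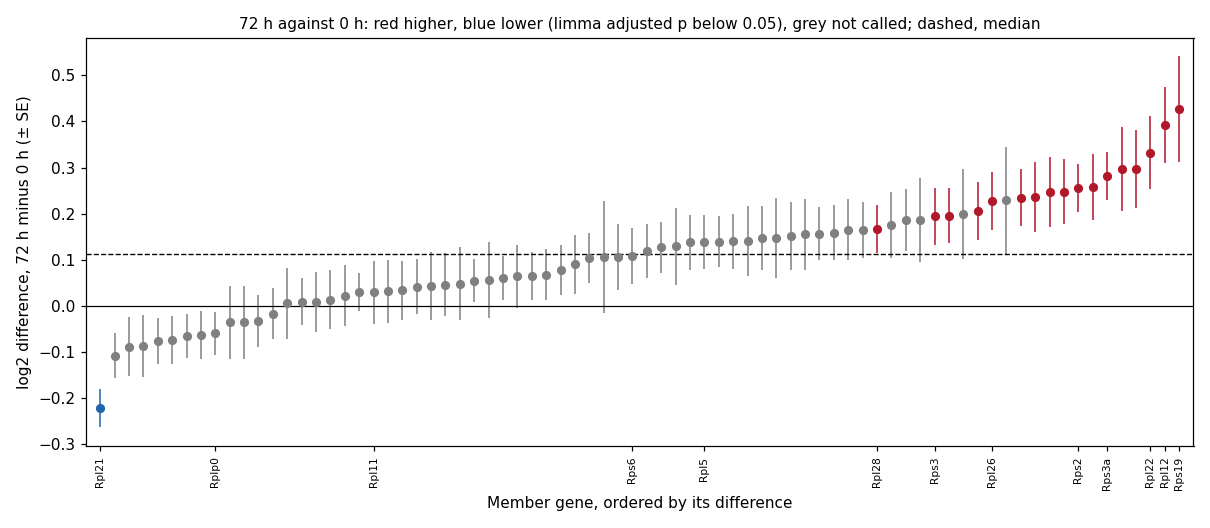
Log2 difference of each member between 72 h and 0 h (vertical axis, ± SE from limma, 2 arrays a time), ordered by size (horizontal axis, on which some members described in the text are named). Red points were called higher (17), the blue point lower (Rpl21), and grey points not called (58), and the dashed line marks the median of 0.11.

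Members grouped by their place in the ribosome each held called and uncalled genes or none called. Of the pair that binds 5S rRNA and, when free, inhibits Mdm2, Rpl5 stood at 0.14 (adjusted p = 0.0996) and Rpl11 at 0.03 (adjusted p = 0.742) at 72 h. Rpl11 was flat on the arrays themselves, at 9.29 and 9.34 at 0 h and 9.29 and 9.40 at 72 h, which overlap. Of 8 proteins in or around the peptide exit tunnel 1 rose (Rpl26, 0.23), and the other 7 ran from 0.03 (Rpl4) to 0.19 (Rpl19). At the mRNA entry, Rps2 and Rps3 (0.19, adjusted p = 0.044) rose and Rps9 was not called (0.15, adjusted p = 0.136). The value of Rps3 was 0.03 both with quantile normalization and as the mean of its probes (adjusted p = 0.586 and 0.685). Of 9 genes mutated in Diamond-Blackfan anaemia 2 rose, Rps19 and Rps26 (0.25), and the others ran from -0.09 (Rps24) to 0.23 (Rps10). Among all genes tested, 27.4% were higher at 72 h, and whether any of these small groups differs from that share was not tested.

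The other members named whatever their values were not called at 72 h, with differences from -0.06 to 0.19. Rps6, the substrate of the S6 kinases, stood at 8.58 and 8.58 at 0 h and at 8.68 and 8.70 at 72 h, a difference of 0.11 (adjusted p = 0.186). Rpsa, which is also the laminin receptor precursor, differed by 0.06 (adjusted p = 0.359), and Rplp0, a common reference gene, by -0.06 (adjusted p = 0.339). Rps27a, which is made as a fusion to ubiquitin, differed by 0.06, the X-linked Rps4x by 0.01 and Rpl3, which lines the peptidyl transferase centre, by 0.04. Rpl13a stood at 0.13, Rpl10, which joins the 60S subunit late, at 0.19, and Rpl38, which favours translation of Hox mRNAs, at 0.15.

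From 6 h to 24 h, 65 of 76 had a negative difference (median -0.05). In limma 0 were called higher and 1 lower (Rpl21), against 12.6% and 13.6% of all genes. At an unadjusted p under 0.05 there were 5, all lower, and the share of all genes there was not counted. The arrays did not overlap for 22 members that were lower and 0 that were higher, against 34.2% and 30.9% of all genes. The rows of the slide did not share this course: in the first all 76 members were lower at 24 h than at 6 h (median -0.13), and in the second 34 were lower and 42 higher (median 0.00). From 24 h to 72 h, 71 of 76 had a positive difference (median 0.12). In limma 3 were called higher and 0 lower, against 10.8% and 10.9% of all genes. At an unadjusted p under 0.05, 25 were higher, and again the share of all genes was not counted. The arrays did not overlap for 48 members that were higher and 1 that was lower, against 34.2% and 30.7%. The 3 were Rpl10a (0.26, SE 0.062, adjusted p = 0.0361), Rpl36a (0.24, SE 0.055, adjusted p = 0.0332) and Rpl28 (0.21, SE 0.052, adjusted p = 0.0407). Rpl10a stood at 8.71 and 8.87 on the 24 h arrays and 9.04 and 9.06 on the 72 h arrays, against 8.83 and 8.86 at 0 h. With the replicate number as a block Rpl28 was no longer called (adjusted p = 0.0521), and 9 members were. Members above 24 h numbered 73 in the first slide row (median 0.19) and 66 in the second (median 0.07). These calls turn on single arrays too: leaving out any 1 array gave 0 called higher, except the second 24 h array, without which 15 were. Over all 4 times, limma's F test called 7 members (55.4% of all genes), 14 with the replicate number as a block, and leaving out 1 array gave between 1 and 19.

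Scaled so that the members' own median was equal on all arrays, 7 members stood above their class at 72 h (Rpl12, Rpl22, Rpl27a, Rpl30, Rps15, Rps19 and Rps3a) and 7 below it, among them Rpl14, Rpl21, Rpl41 and Rps24. That scaling by its construction places about as many members above 0 as below it, and under it 18.9% of all genes were higher and 29.8% lower. Probe brightness moved with the size of the difference, and its part in that size was not tested. The 26 brightest members had a median of 0.05 at 72 h with 2 called higher, the middle 25 a median of 0.15 with 8 called, and the dimmest 25 a median of 0.13 with 7 higher and 1 lower. Across the 76 members Spearman's rho between mean signal and the difference was -0.35 at 72 h and -0.14 at 6 h, over genes that share the same arrays. No member was saturated. Rpl21, Rps19 and Rps21 were among the dimmest 5 probes at every time, and Rps10, Rplp0 and Rpl11 among the brightest 5 at every time. A probe's signal also depends on its sequence, so this order is not one of mRNA amounts.

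The 99 other probes of 55 members allow the same question to be asked again. Over all 175 probes, 50 were higher and 3 lower at 72 h, against 26.4% and 23.6% of 28609 probes tested. The other probe had the sign of the brightest one in 73 of 99 cases at 72 h. Position along the transcript went with the size of the difference: of 39 probes on the 5′ side of the brightest one, 34 gave a higher value than it at 72 h (median excess 0.10) and 22 were called higher. Of 27 probes on the 3′ side, 9 gave a higher value (median -0.04), with 6 called higher and 2 lower. Rps6 shows the spread, with 0.11 for its brightest probe, 0.36 for one on the 5′ side (adjusted p = 0.00872) and 0.03 for one on the 3′ side (adjusted p = 0.619). Rpl27 gave 0.10 with its brightest probe and 0.38 with a 5′ one (adjusted p = 0.00156).

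In 2 genes the probes were called in opposite directions at 72 h. The brightest probe of Rpl15 rose by 0.24 and that of Rps3 by 0.19, whereas a dimmer probe on the 3′ side fell by 0.33 in Rpl15 (adjusted p = 0.0062) and by 0.33 in Rps3 (adjusted p = 0.00273). The larger value of Rpl13a came from a 3′ probe (0.56, adjusted p = 0.00117, against 0.13), so the sides are not uniform. The SD between probes within a gene was 0.151 at 72 h, above the 0.118 between genes. Labelling began at the poly(A) tail with an oligo-dT primer, so probes differ in their distance from the primed end, and its part in these values was not tested. Processed copies of these genes are scattered through the mouse genome. The deposited position of the brightest probe lies on another chromosome than the gene for Rps27 and Rps29, and for Rps2 it lies at chr17:42864841-42864900 (mm9), far from its other probe at chr17:24857583-24857642, which gave a like value (0.26). Signals of such genes may include transcripts of copies and are uncertain in that respect.

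**Figure D4:**
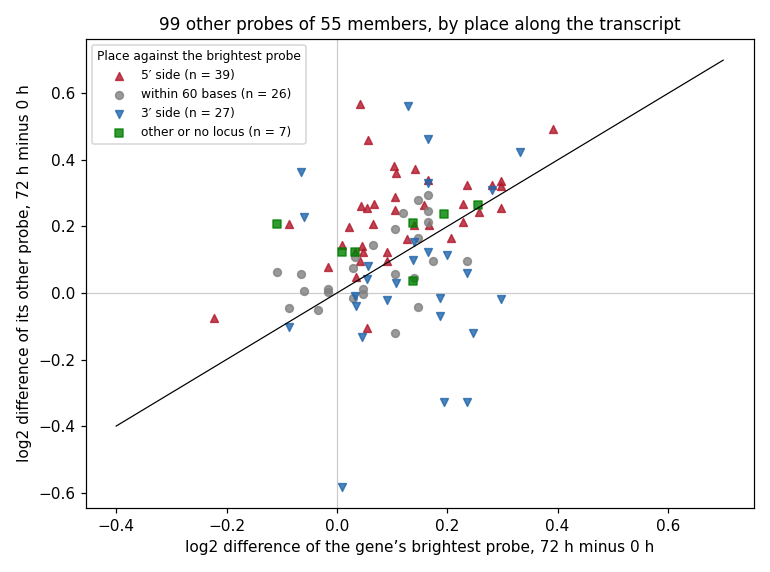
Log2 difference between 72 h and 0 h of each of 99 further probes (vertical axis) against that of the brightest probe of the same gene (horizontal axis), with the line of equality. Red triangles on the 5′ side lie above the line in 34 of 39 cases, and blue triangles on the 3′ side in 9 of 27.

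Genes close to the members in sequence or product lay outside the naming rule. Of the 10 paralogs and fusions on the array, 7 were tested. Rpl22l1, the paralog of Rpl22, had signals of 42830 and 39940 at 0 h and 54470 and 52870 at 72 h, without overlap, and rose by 0.39 (SE 0.066, adjusted p = 0.00478). Rps27l, a p53 target, rose by 0.27 at 24 h and 0.19 at 72 h, and Rpl36al by 0.14 at 72 h (adjusted p = 0.0424). Rpl7l1 rose by 0.30 at 24 h and stood at -0.03 at 72 h. Fau, which fuses a ubiquitin-like domain to a ribosomal protein, was not called at 72 h (0.11). The probe of Rpl10l, a testis paralog, was well above background on the 24 h arrays alone (148.1 and 139.2, against 2.49 to 3.70 on the other 6), at least 10.6-fold over 0 h. Rpl3l, Rpl39l and Rps4y2 did not pass the filter.

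Most genes of ribosome assembly were higher at 24 h and 72 h. Of 24 assembly factors and RNA polymerase I genes, 17 were higher at 6 h, 22 at 24 h and 21 at 72 h, with 0 lower, against 10.3%, 21.3% and 27.4% of all genes higher, and their median differences were 0.31, 0.69 and 0.54 beside 0.04, -0.02 and 0.11 for the members. Gnl3 (nucleostemin) had signals of 943.9 and 890.3 at 0 h and 1629 and 1672 at 6 h, and rose by 0.89 at 6 h and 1.19 at 72 h (adjusted p = 0.000678 and 5.85e-05). Rrp9, a U3 snoRNP protein, rose by 1.33 at 24 h, Rrp12, an export factor of pre-ribosomes, by 1.28, and Nolc1, a nucleolar phosphoprotein, by 0.88. The 6 h arrays of Gnl3 lay wholly above those of 0 h. The count at 6 h rests on single arrays, with 9 higher without either 0 h array and 10 without either 6 h array, and it was 11 with only the times compared, 11 scaled on the members' median and 7 with no filter. At 24 h it was 21 to 23 and at 72 h 17 to 22 under the 21 other settings, of which quantile normalization (1), cyclic loess (2) and the mean of a gene's probes (1) called genes lower at 72 h and the last also 1 at 24 h. Whether the 2 lists differ from each other was not tested.

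Other mRNAs known to bear TOP tracts rose in some cases, mostly late. Of 18 tested, 1 was higher at 6 h, 4 at 24 h and 9 at 72 h, with medians of 0.06, 0.02 and 0.17, against 10.3%, 21.3% and 27.4% of all genes higher. The count at 72 h was 16 with median scaling (median 0.35), 6 with quantile normalization (0.06), 5 with cyclic loess (0.03), 5 scaled on other bright genes (0.06), 5 on the members' median (0.06) and 5 with no filter. It was 6 without the first 72 h array and 5 without the second. Eif4b, a helper of the cap-binding helicase, had signals of 9849 and 9566 at 0 h, 9428 and 9611 at 6 h, 10730 and 11060 at 24 h, and 15830 and 15090 at 72 h. It rose late, by 0.68 at 72 h (SE 0.052, adjusted p = 0.000254). Eif2s3x rose by 0.56, Eif3e by 0.50 and Npm1, the nucleolar chaperone nucleophosmin, by 0.37, while the elongation factors Eef1a1 (0.14, adjusted p = 0.104) and Eef2 (-0.08, adjusted p = 0.338) were not called.

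The snoRNA host genes were higher in 7 of 7 cases at 72 h (median 0.63), after 0 at 6 h and 3 at 24 h, against 27.4%, 10.3% and 21.3% of all genes. Snhg12 stood at 2830 and 2809 at 0 h, 2675 and 2546 at 6 h, 2962 and 3496 at 24 h, and 6769 and 6996 at 72 h, and rose by 1.30 (SE 0.103, adjusted p = 0.000291). Snhg1 rose by 1.21, Snhg6 by 0.74 and Snhg7 by 0.63, all between 24 h and 72 h as well (1.04, 0.52 and 0.36). Eif4a2, a helicase of translation initiation and the one host in this list with a long coding sequence, rose by 0.30 (adjusted p = 0.0147). The 72 h count was 6 without either 0 h array, 5 without either 72 h array, 5 of 8 with no filter, and 7 of 7 under the other 16 settings. The 24 h count was less steady, at 5 without the first 24 h array, 0 higher and 2 lower without the second, 1 without either 0 h array, 1 with only the times compared, 0 with no filter and 5 with median scaling.

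**Figure D5:**
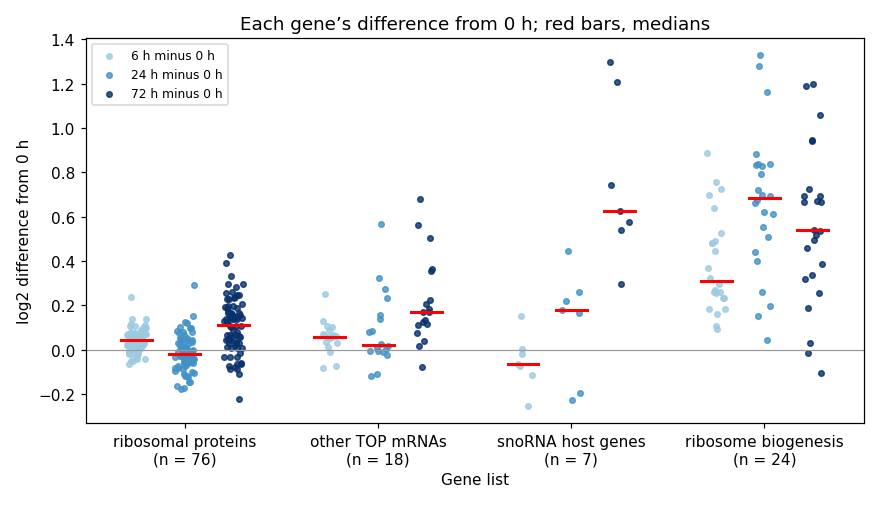
Log2 difference from 0 h (vertical axis) of each tested gene of 4 lists (horizontal axis) at 6 h, 24 h and 72 h, with red bars for medians. The 76 ribosomal protein genes lie between -0.22 and 0.43, while the 24 assembly genes reach a median of 0.69 at 24 h and the 7 snoRNA host genes one of 0.63 at 72 h.

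A further list of 15 genes held regulators of ribosomal protein genes and mRNAs, and also Mdm2, which free Rpl5 and Rpl11 inhibit. Of the 15, 6 were higher at 6 h, 7 at 24 h and 8 at 72 h. The 8 include Tsc2 (0.90), whose dim probe was well above background on 0 arrays at 0 h. It passed the filter only through the later times, so its call carries little weight. With probes well above background on all arrays, 7 of 14 were higher at 72 h. The shares of all genes higher were 10.3%, 21.3% and 27.4%. At 72 h 3 were lower, against 24.6% of all genes. The count at 6 h was 3 without either 0 h or either 6 h array and 3 with no filter, and that of higher genes at 72 h was 5 without the second 0 h array, 5 without the second 72 h array and 5 with no filter. Myc had signals of 545.8 and 576.3 at 0 h, 1408 and 1547 at 6 h, 2072 and 2217 at 24 h, and 2322 and 2280 at 72 h. It was higher at every later time, by 1.43, 1.92 and 2.05 (adjusted p = 0.000425, 8.9e-05 and 4.03e-05). Eif4e, the cap-binding protein, rose by 0.45, 0.53 and 0.44, its inhibitor Eif4ebp1 by 0.24, 0.30 and 0.37, and Larp1 by 0.32 at 24 h and 0.24 at 72 h. Mycn (-0.79), Eif4ebp2 (-0.53) and Mtor (-0.30) fell at 72 h. Mdm2 rose by 0.56 at 72 h, while neither S6 kinase gene (Rps6kb1 and Rps6kb2) was called at any time.

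For the arrays as a whole, 49.9% to 54.7% of 59305 spots were well above background, replicate arrays correlated at 0.996 to 0.997, and the number of arrays limits the precision, with a median SE of 0.063 for members and 0.075 for all genes. Of 10 fibroblast markers, 8 were well above background on all 8 arrays and Thy1 on none, and 6 of the 8 fell by 72 h, Col3a1 by 1.31 and Pdgfra by 1.19, while Vim and Twist1 rose. Among all genes tested, 24.6% were called lower and 27.4% higher at 72 h. Of 6 epithelium markers, Krt8, Krt18 and Krt14 were well above background on all arrays and Epcam, Cdh1 and Cldn4 on none. Their summed signal was 1221 to 1346 at 0 h and 1814 to 1952 at 72 h, and Krt8 rose by 0.93 and Krt18 by 0.34 while Krt14 fell by 1.93. Of 6 macrophage markers, Cd14 and Itgam were well above background on all arrays and Ptprc, Emr1 and Lyz2 on none, and the dim Cd68 was at least 2.92-fold above 0 h at 72 h, while the sum was 6090 to 6567 at 0 h and 6221 to 6268 at 72 h. Of 5 adipocyte markers, Fabp4 rose by 1.91, Lpl fell by 1.41, and Adipoq and Plin1 were above background on no array, with a sum of 2261 to 2333 at 0 h and 1425 to 1449 at 72 h. Of 5 endothelium markers, Pecam1 and Kdr were well above background on all arrays and Cdh5 on none, with a sum of 911.7 to 925.1 at 0 h and 874.7 to 893.9 at 72 h. Most of that sum was Kdr (800.8 and 794 at 0 h). The dim Tek was at least 2.70-fold below 0 h at 72 h (adjusted p = 0.00137), and Vwf was not called (0.57, adjusted p = 0.25). Of 5 muscle markers, Des was well above background on all arrays and Myod1, Myog, Actn2 and Myh3 on none, with a sum of 222.2 to 239.3 at 0 h and 233.6 to 246 at 72 h. The part of these marker changes in the members' values was not tested. In cells measured in bulk, fewer cells with a transcript and less of it per cell cannot be told apart.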

How the data were processed

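Per the labels' protocols, total RNA was labelled with Cy3 from an oligo-dT primer and hybridised in duplicate to 1-colour mouse arrays. The deposited scanner files hold processed signals, an intensity per spot on a linear scale, background-corrected by Agilent's Feature Extraction (10.5.1.1 per the file headers, 10.7.3.1 per the submitters' processing notes), with probe positions in build mm9. The deposited value table holds the same intensities and was used as an alternative. Signals were put on the log2 scale minus each array's 75th percentile over all spots that are not controls, outlier spots were left out, and repeated spots of 1 probe were averaged. Kept probes were well above background on both arrays of some time. The brightest probe stood for its gene. Times were compared with limma 3.58.1 in R 4.3.3 (8 arrays in one fit, 4 residual degrees of freedom), adjusted by Benjamini-Hochberg over 20853 genes, or 28609 probes for statements about probes, at 0.05; the script was tested on simulated data.

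Named genes were, in each comparison, the 6 called members with the largest rise and the 6 with the largest fall, the 5 brightest and 5 dimmest at each time, 16 members named whatever their values, up to 4 called genes a direction of other lists, and paralogs on the array. Vim, Twist1, Eef1a1, Eef2, Mdm2, Larp1 and the probes of Rpl27 and Rpl15 were singled out after their values were seen, as were members that only end a range or complete a list of calls. Some genes that the rule names are not reported here. The members and lists were chosen with earlier results of these data known. Alternatives changed the scaling (median, quantile, cyclic loess), the background correction (normexp, offset 50), the filter, the choice of probe, the variance model, a replicate block and single arrays, and 2 scalings were added after seeing the data. Promoters were searched in Python 3.11.15 with RefSeq sequences.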

Additional observations from a re-analysis of the deposited data

How the results depend on the processing

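Counts of members are given as higher and lower, and medians are of the members' log2 differences. At 72 h against 0 h, median scaling gave 57 and 0 (median 0.294), quantile normalization 9 and 4 (0.012), cyclic loess 4 and 13 (-0.021), scaling on other bright genes 6 and 9 (0.002), scaling on the members' own median 7 and 7 (0.006) and no filter on dim probes 3 higher. At 24 h, median scaling gave 10 and 0 (0.127), cyclic loess 23 lower (-0.123), normexp 1 and 1, the mean of a gene's probes 4 and 1, limma with trend and robust variance 2 higher, the members' median 1 and 0, and no filter, or only the times compared, 0 lower. At 6 h the median was 0.094 with median scaling, -0.006 with quantile normalization, -0.068 with cyclic loess (1 lower), 0.019 with normexp, -0.006 on other bright genes and 0.002 on the members' median. Between 6 h and 24 h, members lower came to 0 with median scaling, no filter, the mean of a gene's probes (1 higher), only the times compared, other bright genes and the members' median, 2 with cyclic loess and with the stricter filter, and 4 with trend and robust variance. Between 24 h and 72 h, members higher came to 5 with median scaling, 8 with cyclic loess, 13 with normexp, 18 with trend and robust variance, and 0 with no filter, only the times compared, other bright genes and the members' median. The F test called 34 with median scaling, 15 with cyclic loess, 15 with normexp, 12 with the mean of a gene's probes, 24 with trend and robust variance, 3 on other bright genes, 2 on the members' median and 0 with no filter, which tests more genes (36161). The deposited value table gave the same counts as reported (17 and 1 at 72 h).

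Leaving out 1 array at a time, members higher ranged from 2 to 25 at 72 h, 0 to 2 at 24 h and 0 to 15 from 24 h to 72 h. Members lower ranged from 0 to 4 at 24 h and 0 to 1 from 6 h to 24 h. The medians ranged from 0.095 to 0.131 at 72 h, -0.087 to 0.052 at 24 h and 0.023 to 0.059 at 6 h, and the F test called 1 to 19. Each such fit has 1 array at that time, assumed to vary like the others. The replicate number was also fitted as a replicate block, with 21 higher at 72 h, 9 higher from 24 h to 72 h and 14 by the F test. Arrays of the same number deviated together at correlations of 0.056 to 0.168 over all genes, under 0.1 for 4 of 6 pairs of times, and at 0.213 to 0.473 over the members. The labels tie the numbers to no shared culture, and over all genes not every pair passes 0.1, so the fit without the block is the one reported. The calls that the block ended included those of Rpl41 at 24 h and of Rpl28 between 24 h and 72 h. It added others, among them Rplp1 at 72 h. Of the 17 members called higher at 72 h, 15 kept their call, among the 21 called with the block. The cause of these changes was not tested. All 76 members were well above background on all 8 arrays, so signal over background limits none of them.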
